A study of Mus musculus with 9 samples.

Results

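The 36 genes studied here serve antioxidant defence, many of them under the transcription factor NRF2, and they were followed in cartilage-forming limb cell cultures in which caspases were inhibited. They were chosen by name from what their products do, with earlier results of these data known. All 36 were found once each among the 52550 genes of the deposited count table. They comprise the NRF2 gene and its repressor gene (Nfe2l2, Keap1), heme and biliverdin breakdown (Hmox1, Blvrb), ferritin (Ftl1, Fth1) and glutathione synthesis and recycling (Gclc, Gclm, Gss, Gsr). Thioredoxin, sulfiredoxin and peroxiredoxin genes (Txn1, Txnrd1, Srxn1, Prdx1, Prdx6) follow, with NADPH supply (G6pdx, Pgd, Taldo1, Tkt) and quinone, epoxide and conjugate handling (Nqo1, Ephx1, Gsta4, Gstm1, Gstp1, Mgst1, Abcc1). The rest are peroxidases (Gpx1, Gpx3, Gpx4, Cat), superoxide dismutases (Sod1, Sod2, Sod3), metallothioneins (Mt1, Mt2) and Osgin1.

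The cultures were micromasses, dense drops of cells from forelimbs of mouse embryos at embryonic day 12, kept in a medium in which limb mesenchyme forms cartilage. Cultures received Z-VAD-FMK (FMK) or Q-VD-OPH (OPH), each at 100 µM in the vehicle DMSO, or DMSO alone, for 6 days, with 3 libraries in each of the 3 groups. The protocols call the 3 cultures of a group biological replicates, so the spread below is between cultures, and give no strain or genotype. FMK and OPH are both peptide-like inhibitors of most caspases. FMK is a Val-Ala-Asp peptide with a benzyloxycarbonyl cap and a fluoromethyl ketone, while OPH is a Val-Asp peptide with a quinoline cap and a difluorophenoxymethyl ketone, and each was given at a single, equal dose. The series title relates the work to genes linked to osteoarthritis. Cells came from whole forelimbs, so a library sums all cell types that grew in the drop.

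NRF2, the product of Nfe2l2, is a transcription factor that KEAP1 holds and hands over for degradation. Oxidants and reactive electrophiles modify cysteines of KEAP1, after which NRF2 accumulates, pairs with a small MAF protein and binds antioxidant response elements (ARE) near genes for glutathione synthesis, thioredoxin reduction, NADPH supply and detoxification. The same program limits hydrogen peroxide and lipid peroxides in cartilage and other tissues, and its output is often read from Hmox1, Nqo1, Gclm, Txnrd1 and Srxn1. Several members also answer to other regulators: Hmox1 is repressed by BACH1, and metallothionein genes respond to zinc through the factor MTF1.

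Upstream sequence was read from the RefSeq promoter table (GRCm38.p6, the mm10 assembly), which matched 29 of the 36 genes. The windows below, each with the matching bases in capitals and flanking bases in lower case, hold the ARE core TGACNNNGC, or its G form TGAGNNNGC. They are shown for called members of several roles, rising or falling, and for Prdx1, Mgst1 and Osgin1, which did not pass in any comparison as fitted across the 3 groups without a replicate block. G6pdx, Sod1 and Gstp1 hold a core too and are not shown. They are written 5′ to 3′ on the strand of the gene, so a match on the opposite strand reads as the reverse complement, and distances are from the RefSeq start, which can differ from the GENCODE start given with a gene.
Nfe2l2, chr2:75704883-75704913, minus strand: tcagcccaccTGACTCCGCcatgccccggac
Txnrd1, chr10:82859102-82859134, plus strand: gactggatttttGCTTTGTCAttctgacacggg
Gclm, chr3:122245411-122245443, plus strand: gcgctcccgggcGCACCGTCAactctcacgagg
Srxn1, distal, chr2:152105354-152105386, plus strand: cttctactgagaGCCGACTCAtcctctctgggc
Srxn1, proximal, chr2:152105467-152105499, plus strand: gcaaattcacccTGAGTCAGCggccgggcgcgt
Mt2, chr8:94172527-94172559, plus strand: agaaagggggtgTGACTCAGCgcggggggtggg
Blvrb, chr7:27447897-27447929, plus strand: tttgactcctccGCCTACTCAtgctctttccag
Taldo1, chr7:141391927-141391959, plus strand: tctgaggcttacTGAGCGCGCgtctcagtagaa
Prdx1, chr4:116685454-116685486, plus strand: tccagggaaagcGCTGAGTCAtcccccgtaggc
Mgst1, chr6:138140459-138140491, plus strand: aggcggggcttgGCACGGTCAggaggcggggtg
Osgin1, chr8:119437036-119437068, plus strand: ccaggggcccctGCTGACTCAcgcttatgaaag
The proximal Srxn1 match lies 45 to 37 bases before the annotated start, and the Mt2 match 79 to 71 bases before it.

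Libraries held 5659789 to 6867350 counts, each count being the 3' end of a polyadenylated transcript, and 13255 genes, all 36 members among them, passed the filter on low counts. The cells are labelled chondroblasts, and cartilage markers were abundant, at 3411 to 4754 CPM (counts per 1000000, with library totals scaled by the TMM method) summed over 15 genes in DMSO libraries, 1749 to 1859.7 in FMK libraries and 1638 to 2787 in OPH libraries, led by Col2a1 and Col11a1. Other cells were present too. The 16 macrophage markers, led by Lyz2 and Fcer1g, summed to 1462 to 2827 CPM in DMSO libraries, 34.6 to 47.9 in FMK libraries and 242 to 278 in OPH libraries, with no marker at 0 in a whole group. The 15 adipocyte markers, led by Lpl and Fabp4, summed to 607 to 3313, 216 to 302 and 938 to 3878 CPM in the same order, with Cidec, Lep and Ucp1 at 0 with FMK and library 3 lowest in each group. Skeletal muscle markers were highest in library 3 of each group. The 16 interferon response genes all rose with both inhibitors (median log2 fold change 5.13 with FMK and 4.97 with OPH). Erythroid markers summed to at most 5.23 CPM and endothelial markers to at most 18.9 CPM. In such bulk RNA, fewer cells of a type and less RNA per cell cannot be told apart.

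More of these genes rose than fell with either inhibitor, an order that for FMK turned under scaling by library size alone. With FMK, 10 of 36 rose and 3 fell against DMSO at an adjusted p under 0.05, where 20.6% of all genes passed, 10.4% higher and 10.1% lower. With OPH, 12 rose and 2 fell, against 16.7% of all genes, 8.61% higher and 8.11% lower. Between the inhibitors, 7 members were higher and 3 lower with OPH than with FMK, against 8.86% of all genes, 4.20% higher and 4.66% lower. The members' shares called were 36.1%, 38.9% and 27.8%, in a list chosen with earlier results of these data known. Their median log2 fold changes were 0.17, 0.18 and 0.20, beside all-gene medians of -0.0064, -0.0025 and 0.0084. Leaving out 1 library moved the FMK median to 0.091 without DMSO library 2, 0.068 without DMSO library 3 and 0.053 without FMK library 1, and it was 0.049 in libraries 1 and 2 alone. The OPH median was 0.27 without DMSO library 2, and that between inhibitors 0.089 without OPH library 2. The comparisons with DMSO share their control libraries and are given side by side only. In the same order of comparisons, the libraries of the 2 groups did not overlap for 44.4%, 55.6% and 50.0% of members. That held for 35.5%, 33.7% and 27.1% of all genes, so a lack of overlap, given below for single members, was common.

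Tests were edgeR's quasi-likelihood F test with Benjamini-Hochberg adjustment over all 13255 genes, and errors on a log2 fold change are its standard error. With the replicate number as a block, 11 members rose and 5 fell with FMK, and 16 rose and 4 fell with OPH. Between the inhibitors, the block gave 12 higher and 4 lower. Over all genes the block gave 1779 higher and 1773 lower with FMK, 1536 and 1503 with OPH, and 1031 and 1108 between inhibitors. Without the block these were 1383 and 1341, 1141 and 1075, and 557 and 618. With FMK, 6 members rose and 4 fell without DMSO library 3 and 6 rose and 3 fell without FMK library 2. All genes gave 1282 higher and 1185 lower in the first fit, and 1041 and 938 in the second. With OPH, 7 members rose and 2 fell without OPH library 2. Without DMSO library 1, 11 rose and 1 fell, and without DMSO library 2, 9 rose and 1 fell. In that order, 791, 818 and 900 of all genes rose and 696, 726 and 835 fell. Between inhibitors, 5 members were higher and 2 lower without FMK library 2, and the same counts came without OPH library 1 or 2. All genes gave 323 higher and 386 lower, 390 and 408, and 265 and 306 in these fits. Scaling by library size alone moved the all-gene median log2 fold change to -0.11 with FMK and to 0.12 between inhibitors. Under it the members' medians were 0.069 and 0.31. Then 6 members rose and 7 fell with FMK (all genes 1012 and 1938, against 1383 and 1341 under TMM), and 12 were higher and 2 lower between inhibitors (all genes 1103 and 385, against 557 and 618).

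**Figure D1:**
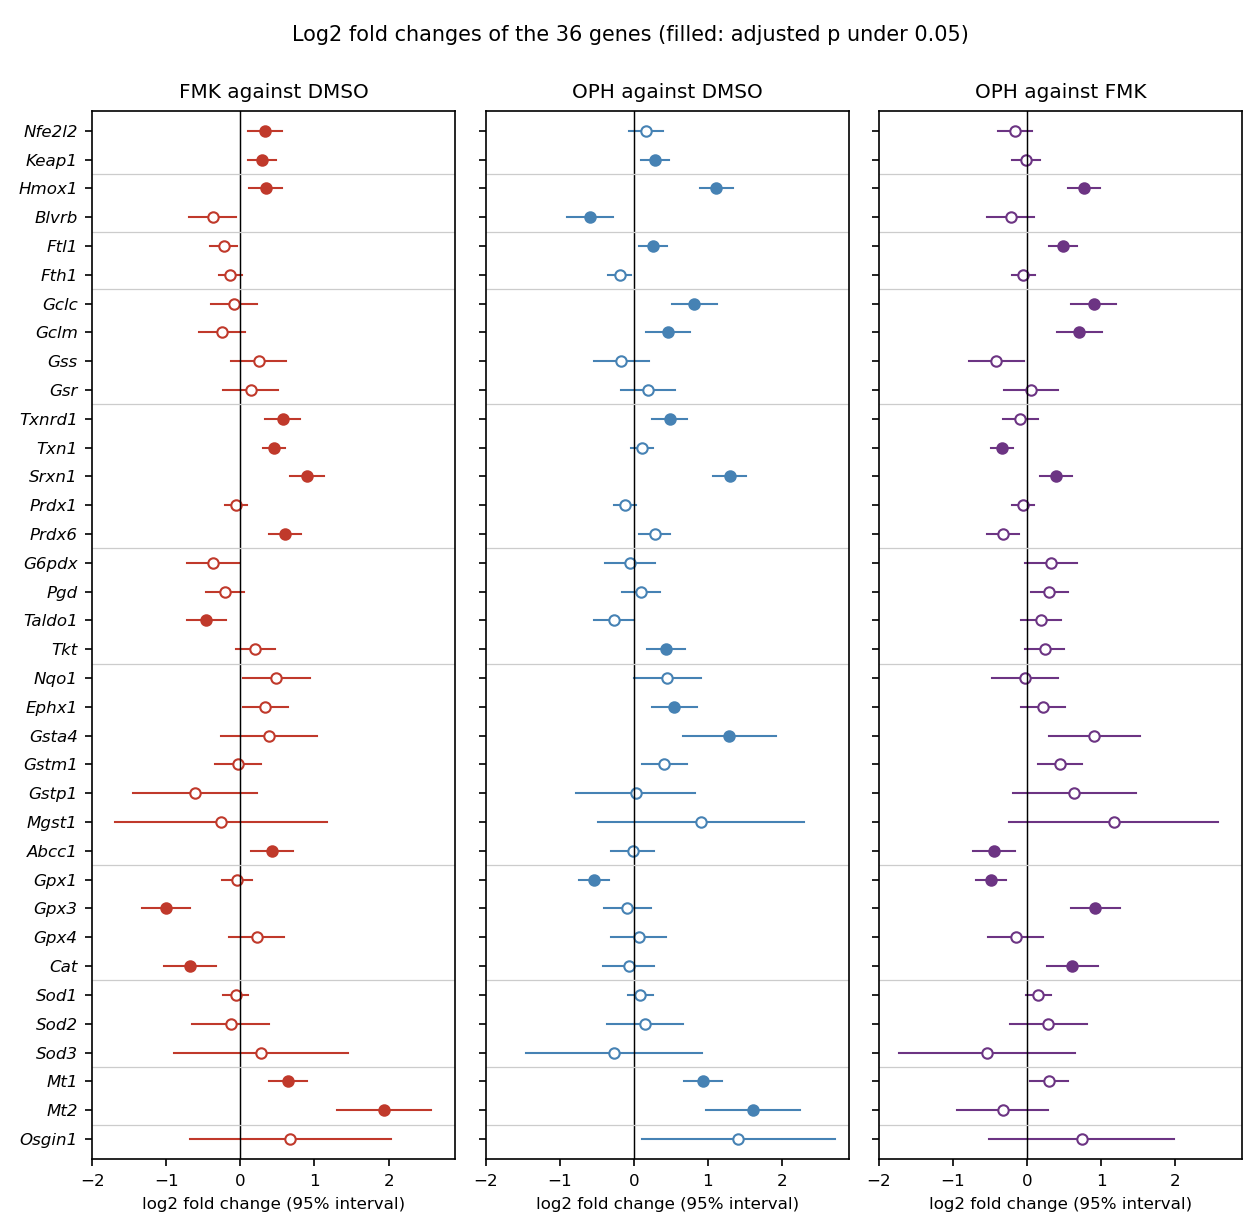
Log2 fold changes of the 36 genes (x axis, with 95% intervals) for FMK against DMSO, OPH against DMSO and OPH against FMK, genes on the y axis in order of role; filled points passed an adjusted p of 0.05. Srxn1, Mt1 and Mt2 lie to the right of 0 with both inhibitors, Gpx3 and Cat are filled to the left of 0 in FMK against DMSO, and Hmox1, Gclc and Gclm to the right in OPH against FMK.

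Keap1 rose slightly with both inhibitors and Nfe2l2 with FMK. Nfe2l2 (ENSMUSG00000015839, chr2:75675513-75704641, minus strand) stood at 92.9, 111 and 80.2 CPM with DMSO, 122, 119 and 116 CPM with FMK and 113, 100.2 and 106 CPM with OPH, in the order of libraries 1, 2 and 3, which is the order used throughout. The FMK libraries all lay above the DMSO libraries, and the OPH libraries overlapped them. Nfe2l2 rose 1.26-fold with FMK (log2 fold change 0.33 ± 0.11, adjusted p = 0.0356), while with OPH its log2 fold change was 0.17 (adjusted p = 0.336, 95% interval -0.058 to 0.39). Keap1, which encodes the cysteine-rich sensor that targets NRF2 for degradation, was at 105, 102 and 91.3 CPM with DMSO, 126, 126 and 115 CPM with FMK and 124, 123 and 115 CPM with OPH. Every treated library exceeded every DMSO library for Keap1, which rose 1.23-fold with FMK (log2 fold change 0.30 ± 0.09, adjusted p = 0.0266) and 1.22-fold with OPH (log2 fold change 0.28 ± 0.09, adjusted p = 0.0391). Neither gene separated the inhibitors: OPH against FMK gave -0.16 (adjusted p = 0.398, 95% interval -0.39 to 0.061) for Nfe2l2 and -0.014 (adjusted p = 0.952, 95% interval -0.20 to 0.18) for Keap1.

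These regulator calls were near the threshold. That of Nfe2l2 with FMK was missed without DMSO library 1 or 3 or FMK library 1 or 2 (adjusted p = 0.0852 to 0.153), and with scaling by library size alone, with only the pair of groups in the fit or in libraries 1 and 2 alone (adjusted p = 0.0512 to 0.145). Keap1 missed it with FMK without DMSO library 2 or 3 or FMK library 1 or 2 (adjusted p = 0.0535 to 0.0989), and with scaling by library size alone or in libraries 1 and 2 alone (adjusted p = 0.0540 to 0.139), and with OPH without DMSO library 1, 2 or 3, FMK library 2 or OPH library 1, 2 or 3 (adjusted p = 0.0502 to 0.147), and in libraries 1 and 2 alone (adjusted p = 0.0903).

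Of the 5 sulfiredoxin, thioredoxin and peroxiredoxin genes, 4 rose with FMK and 2 with OPH, where 10.4% and 8.61% of all genes rose. Srxn1 (ENSMUSG00000032802, chr2:152105516-152111376, plus strand), which encodes the enzyme that repairs overoxidized peroxiredoxins, was at 49.3, 38.4 and 42.4 CPM with DMSO, 85.3, 83.6 and 74.3 CPM with FMK and 107, 106 and 106 CPM with OPH. The groups did not overlap, with DMSO lowest, FMK between and OPH highest. Srxn1 rose 1.87-fold with FMK (log2 fold change 0.90 ± 0.11, adjusted p = 8.25e-06) and 2.45-fold with OPH (log2 fold change 1.29 ± 0.11, adjusted p = 1.59e-07), and was 1.31-fold higher with OPH than with FMK (log2 fold change 0.39 ± 0.11, adjusted p = 0.0263). That last difference missed the threshold without FMK library 1, 2 or 3 or OPH library 1, 2 or 3 (adjusted p = 0.0506 to 0.0856), and in libraries 1 and 2 alone (adjusted p = 0.0949). The 250 bases before its start, where both ARE cores of the G form are in capitals, are printed because Srxn1 rose with both inhibitors.
Srxn1 promoter, chr2:152105274-152105523, plus strand: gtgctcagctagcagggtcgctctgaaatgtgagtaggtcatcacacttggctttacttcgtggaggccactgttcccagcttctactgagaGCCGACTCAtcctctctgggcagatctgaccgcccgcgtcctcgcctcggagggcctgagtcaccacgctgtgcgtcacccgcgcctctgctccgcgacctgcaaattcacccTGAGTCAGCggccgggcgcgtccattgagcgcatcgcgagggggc

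Txnrd1, the gene of cytosolic thioredoxin reductase, was at 59.9, 61.9 and 60.5 CPM with DMSO, 85.1, 85.0 and 101 CPM with FMK and 77.0, 79.8 and 98.1 CPM with OPH. All 6 treated libraries lay above the DMSO libraries, which spanned 59.9 to 61.9 CPM. Txnrd1 rose 1.49-fold with FMK (log2 fold change 0.57 ± 0.11, adjusted p = 0.00127) and 1.40-fold with OPH (log2 fold change 0.48 ± 0.11, adjusted p = 0.00623), with a log2 difference between inhibitors of -0.091 (adjusted p = 0.7, 95% interval -0.32 to 0.14). Txn1, which encodes thioredoxin, the small protein that Txnrd1 keeps reduced, was at 631, 615 and 683 CPM with DMSO, 881, 904 and 851 CPM with FMK and 706, 699.6 and 680.2 CPM with OPH. It rose 1.37-fold with FMK (log2 fold change 0.45 ± 0.069, adjusted p = 0.000120) and stood at a log2 fold change of 0.11 (adjusted p = 0.308, 95% interval -0.032 to 0.26) with OPH. Txn1 was 1.26-fold lower with OPH than with FMK (log2 fold change -0.34 ± 0.069, adjusted p = 0.00520), with no overlap between those groups.

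Prdx6, a peroxiredoxin gene whose product also reduces lipid hydroperoxides, was at 110.0, 118 and 133 CPM with DMSO, 158, 189 and 202 CPM with FMK and 147, 151 and 141 CPM with OPH. It rose 1.52-fold with FMK (log2 fold change 0.60 ± 0.10, adjusted p = 0.000302), all FMK libraries lying above all others. All OPH libraries lay above all DMSO libraries too, but the OPH change missed the threshold (log2 fold change 0.28 ± 0.10, adjusted p = 0.0680). That change passed with the replicate block (adjusted p = 0.0154) and without DMSO library 3 or FMK library 1 or 3 (adjusted p = 0.0333 to 0.0497). It also passed with no filter on low counts, only the pair of groups in the fit or libraries 1 and 2 alone (adjusted p = 0.0188 to 0.0498). OPH against FMK for Prdx6 (log2 fold change -0.32 ± 0.10, adjusted p = 0.0538) likewise passed with the block (adjusted p = 0.0107) and without DMSO library 3 or FMK library 1 (adjusted p = 0.0242 to 0.0357). With RLE scaling or no filter on low counts it passed as well (adjusted p = 0.0499 and 0.0232). Prdx1, an abundant cytosolic peroxiredoxin gene, was at 564 ± 15.8 CPM with DMSO, 540.5 ± 19.8 with FMK and 521 ± 28.0 with OPH (SD, n = 3 in each group here and below), with log2 fold changes of -0.061 (adjusted p = 0.620, 95% interval -0.21 to 0.09) and -0.12 (adjusted p = 0.320, 95% interval -0.27 to 0.036).

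**Figure D2:**
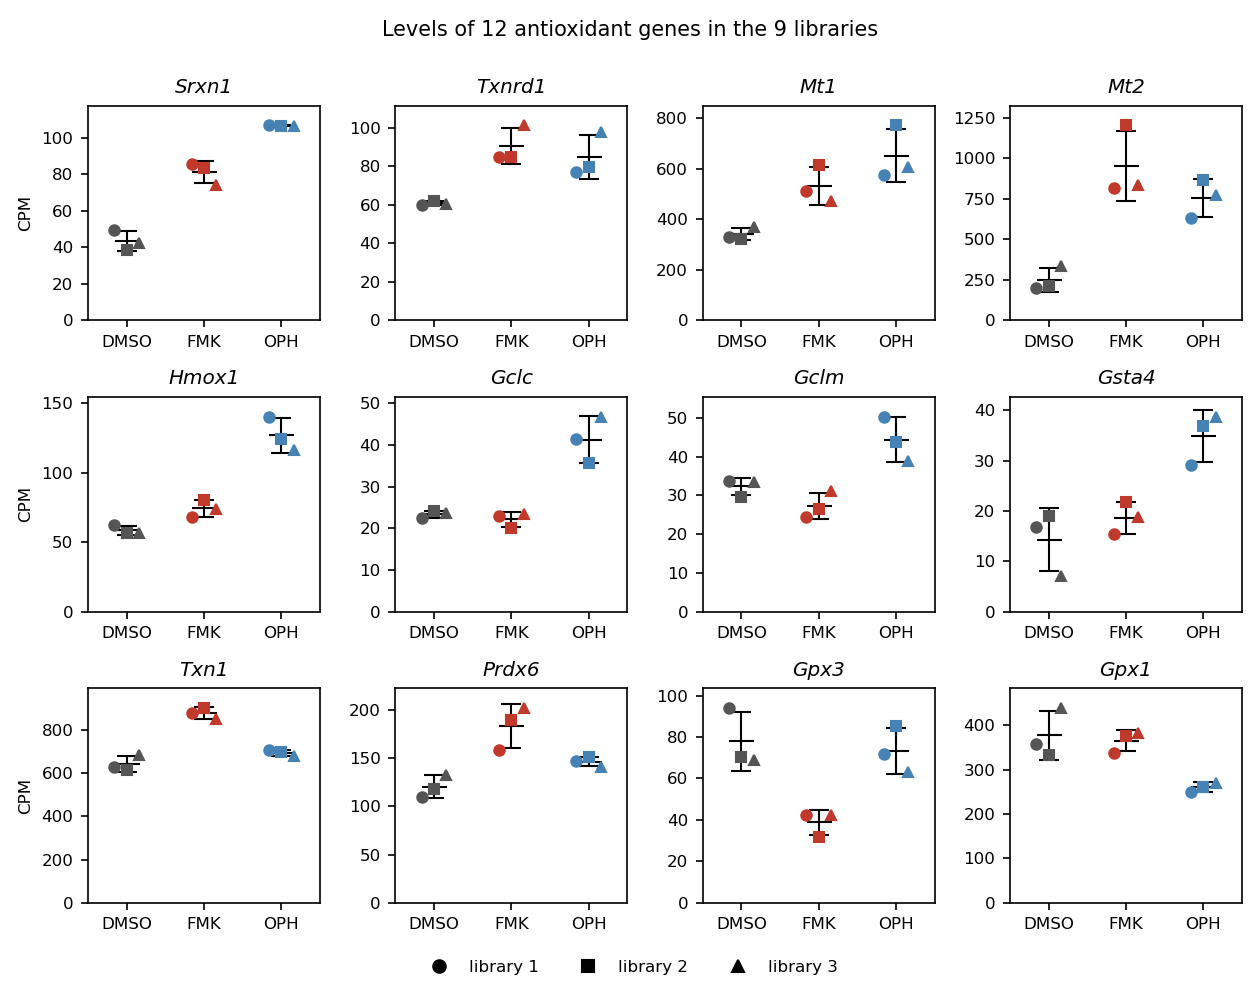
Levels in CPM (y axis, from 0) of 12 of the 36 genes in the 3 groups (x axis); each symbol is a library and marks its number, and the bars give the group mean ± SD. Srxn1 sits between 38.4 and 49.3 CPM with DMSO and between 106 and 107 CPM with OPH, and Hmox1 with OPH sits above both other groups.

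Both subunit genes of the first enzyme of glutathione synthesis were higher with OPH than with FMK or DMSO. Gclc (ENSMUSG00000032350, chr9:77754535-77794485, plus strand) encodes the catalytic and Gclm the modifier subunit of glutamate-cysteine ligase, the enzyme that sets the rate of glutathione synthesis. Gclc was at 22.4, 24.0 and 23.7 CPM with DMSO, 22.9, 20.2 and 23.4 CPM with FMK and 41.4, 35.7 and 46.8 CPM with OPH. Its FMK and DMSO libraries overlapped, and all OPH libraries lay above them. Gclc rose 1.76-fold with OPH against DMSO (log2 fold change 0.82 ± 0.14, adjusted p = 0.000592) and was 1.87-fold higher with OPH than with FMK (log2 fold change 0.90 ± 0.14, adjusted p = 0.000825), while FMK against DMSO gave -0.081 (adjusted p = 0.767, 95% interval -0.39 to 0.23).

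Gclm went the same way, at 33.8, 29.7 and 33.4 CPM with DMSO, 24.3, 26.4 and 31.1 CPM with FMK and 50.3, 43.8 and 38.8 CPM with OPH. All OPH libraries again lay above all others. Gclm rose 1.37-fold with OPH (log2 fold change 0.46 ± 0.14, adjusted p = 0.0337) and was 1.63-fold higher with OPH than with FMK (log2 fold change 0.70 ± 0.14, adjusted p = 0.00513), with a log2 fold change of -0.25 (adjusted p = 0.269, 95% interval -0.55 to 0.06) for FMK. The OPH rise of Gclm missed the threshold without DMSO library 1, 2 or 3 or OPH library 1 or 2 (adjusted p = 0.0586 to 0.157). Gss, the gene of glutathione synthetase, the enzyme of the final step, was at 16.3 ± 0.858 CPM with DMSO, 19.3 ± 2.47 with FMK and 14.4 ± 0.459 with OPH. Gsr, the gene of the reductase that returns oxidized glutathione to its reduced form, was at 22.1 ± 1.60 CPM with DMSO, 24.3 ± 1.83 with FMK and 25.2 ± 5.61 with OPH. Neither passed in any comparison, the smallest adjusted p being 0.157, for Gss in OPH against FMK.

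Hmox1 was highest with OPH and next with FMK. Hmox1 (ENSMUSG00000005413, chr8:75093621-75100589, plus strand), the gene of the inducible heme oxygenase that releases iron, carbon monoxide and biliverdin from heme, was at 62.1, 56.8 and 56.7 CPM with DMSO, 68.3, 80.3 and 73.9 CPM with FMK and 140.3, 124 and 116 CPM with OPH. DMSO libraries were lowest, FMK libraries next and OPH libraries highest, without overlap. Hmox1 rose 2.17-fold with OPH (log2 fold change 1.12 ± 0.10, adjusted p = 5.92e-07) and 1.27-fold with FMK (log2 fold change 0.34 ± 0.10, adjusted p = 0.0272), and was 1.71-fold higher with OPH than with FMK (log2 fold change 0.77 ± 0.10, adjusted p = 0.000147). The FMK rise missed the threshold without DMSO library 2 or 3 or FMK library 2 (adjusted p = 0.0653 to 0.117), and with scaling by library size alone or in libraries 1 and 2 alone (adjusted p = 0.0748 to 0.115).

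Blvrb, which encodes a biliverdin and flavin reductase, was at 58.8, 59.2 and 40.8 CPM with DMSO, 45.7, 41.4 and 35.1 CPM with FMK and 35.6, 35.0 and 34.5 CPM with OPH. All OPH libraries lay below all DMSO libraries. Blvrb fell with OPH (1.51-fold lower, log2 fold change -0.59 ± 0.15, adjusted p = 0.0102), a call missed without DMSO library 1 or 2 (adjusted p = 0.0554 to 0.0561). FMK against DMSO gave -0.37 (adjusted p = 0.0877, 95% interval -0.69 to -0.061) for Blvrb, which passed with the block (adjusted p = 0.0275) and without DMSO library 3 (adjusted p = 0.0108). The Blvrb change with FMK also passed with scaling by library size alone and in libraries 1 and 2 alone (adjusted p = 0.0267 and 0.0350). Macrophages take up red cells and handle much heme, and the summed macrophage markers were at 34.6 to 47.9 CPM in FMK libraries and 242 to 278 in OPH libraries, from 1462 to 2827 in DMSO libraries. Their part in the Hmox1, Blvrb and ferritin levels was not tested.

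Ftl1, the ferritin light chain gene, was at 139.5, 155 and 154 CPM with DMSO, 129.7, 131 and 123 CPM with FMK and 167, 175 and 195 CPM with OPH. Its OPH libraries lay above all others and its FMK libraries below all others, so that Ftl1 was 1.40-fold higher with OPH than with FMK (log2 fold change 0.49 ± 0.088, adjusted p = 0.00209). Against DMSO the OPH rise only just passed (log2 fold change 0.26 ± 0.087, adjusted p = 0.04997) and missed the threshold without DMSO library 1, 2 or 3, FMK library 1 or 2 or OPH library 1, 2 or 3 (adjusted p = 0.0504 to 0.213), and with RLE scaling, with a stricter filter on low counts, with DESeq2, with limma-voom, with only the pair of groups in the fit or in libraries 1 and 2 alone (adjusted p = 0.0511 to 0.151). With FMK its log2 fold change was -0.23 (adjusted p = 0.0806, 95% interval -0.41 to -0.041). That change passed with the block (adjusted p = 0.0472) and with scaling by library size alone (adjusted p = 0.0116). Fth1, the ferritin heavy chain gene, was at 1205 ± 24.1 CPM with DMSO, 1097 ± 109 with FMK and 1058 ± 15.2 with OPH. Fth1 gave -0.14 (adjusted p = 0.231, 95% interval -0.29 to 0.021) with FMK and -0.19 (adjusted p = 0.0999, 95% interval -0.34 to -0.031) with OPH. The latter passed with the block (adjusted p = 0.0464) and without FMK library 3 (adjusted p = 0.0465). The FMK change of Fth1 passed with scaling by library size alone (adjusted p = 0.0242). Ferritin genes have processed copies, and how reads that match several places were counted is not given in the sources used here, so ferritin levels are uncertain.

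Metallothionein genes rose with both inhibitors. Their products are small cysteine-rich proteins that bind zinc and copper and also react with oxidants. Mt2 (ENSMUSG00000031762, chr8:94172664-94173568, plus strand) was at 202, 210.5 and 333 CPM with DMSO, 818, 1204 and 835 CPM with FMK and 631, 864 and 776 CPM with OPH, and every treated library was above every DMSO library. Mt2 rose 3.83-fold with FMK (log2 fold change 1.94 ± 0.27, adjusted p = 0.00276) and 3.05-fold with OPH (log2 fold change 1.61 ± 0.26, adjusted p = 0.00789). Mt1, its neighbour in the genome, was at 332, 323 and 370.5 CPM with DMSO, 512, 616 and 471 CPM with FMK and 576, 773 and 608 CPM with OPH. Mt1 rose 1.56-fold with FMK (log2 fold change 0.64 ± 0.12, adjusted p = 0.00179) and 1.91-fold with OPH (log2 fold change 0.93 ± 0.12, adjusted p = 0.000138). OPH against FMK gave -0.33 (adjusted p = 0.524, 95% interval -0.94 to 0.28) for Mt2 and 0.29 (adjusted p = 0.159, 95% interval 0.034 to 0.55) for Mt1, and only the latter passed with the block (adjusted p = 0.0338). The Mt1 difference also passed with scaling by library size alone and with no filter on low counts (adjusted p = 0.0397 and 0.00696).

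The Mt2 promoter is printed because Mt2 had the highest log2 fold change of all members with either inhibitor. It holds both kinds of core searched for, the ARE and the core of the metal response element that MTF1 binds (TGCACNC or TGCGCNC). Gclm, Srxn1 and G6pdx hold both kinds too. The metal response core of Srxn1, 19 to 13 bases before its start, was left in lower case above. Capitals mark the ARE and the 3 metal response cores on either strand of the 250 bases before the start, and the Mt1 window marks its single metal response core.
Mt2 promoter, chr8:94172368-94172617, plus strand: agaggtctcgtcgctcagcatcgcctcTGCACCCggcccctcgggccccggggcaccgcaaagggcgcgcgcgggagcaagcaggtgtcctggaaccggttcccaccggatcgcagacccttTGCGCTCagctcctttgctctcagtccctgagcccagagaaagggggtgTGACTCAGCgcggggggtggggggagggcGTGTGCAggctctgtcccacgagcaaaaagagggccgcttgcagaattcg
Mt1, chr8:94179054-94179084, plus strand: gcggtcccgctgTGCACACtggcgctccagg
The Mt1 core lies 23 to 17 bases before the start. Windows with a metal response core belonged to 7 of the 29 matched members (24.1%) and to 23.8% of all 27025 genes in the table, so the share among members was close to that of all genes.

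Of the 7 quinone, epoxide and conjugation genes, Ephx1 and Gsta4 rose with OPH and Abcc1 with FMK, where 8.61% and 10.4% of all genes rose. Gsta4, a glutathione transferase gene whose product conjugates the lipid peroxidation product hydroxynonenal, was at 16.8, 19.0 and 7.12 CPM with DMSO, 15.4, 21.7 and 18.8 CPM with FMK and 29.1, 36.8 and 38.8 CPM with OPH. It rose 2.45-fold with OPH (log2 fold change 1.29 ± 0.29, adjusted p = 0.00921), all OPH libraries lying above all others. DMSO library 3 was the lowest of the 9. OPH against FMK (log2 fold change 0.90 ± 0.28, adjusted p = 0.0699) passed with the block (adjusted p = 0.0199) and without DMSO library 2 or 3 (adjusted p = 0.00236 to 0.0486).

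Ephx1, the microsomal epoxide hydrolase gene, was at 45.0, 48.7 and 35.2 CPM with DMSO, 49.8, 57.1 and 55.9 CPM with FMK and 64.6, 72.4 and 51.3 CPM with OPH. All OPH libraries lay above all DMSO libraries. Ephx1 rose 1.46-fold with OPH (log2 fold change 0.55 ± 0.14, adjusted p = 0.0130), a call missed without DMSO library 3 or OPH library 2 (adjusted p = 0.0635 to 0.0868). With FMK it gave 0.34 (adjusted p = 0.114, 95% interval 0.034 to 0.64), and 0.0318 as the adjusted p with the block. Abcc1, which encodes an exporter of glutathione conjugates, was at 36.9, 42.6 and 38.5 CPM with DMSO, 53.4, 59.5 and 45.8 CPM with FMK and 36.1, 35.8 and 44.8 CPM with OPH. It was highest with FMK, 1.35-fold above DMSO (log2 fold change 0.43 ± 0.14, adjusted p = 0.0317) and with OPH 1.36-fold below FMK (log2 fold change -0.45 ± 0.14, adjusted p = 0.0478). The FMK rise of Abcc1 was missed without DMSO library 1 or 3 or FMK library 1 or 2 (adjusted p = 0.0691 to 0.145), and with scaling by library size alone (adjusted p = 0.0933). Its difference between inhibitors was missed without DMSO library 1 or 2, FMK library 1 or 2 or OPH library 1 or 2 (adjusted p = 0.0545 to 0.192), and with scaling by library size alone, with DESeq2, with limma-voom or with only the pair of groups in the fit (adjusted p = 0.0501 to 0.118).

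Mgst1, a membrane-bound glutathione transferase gene, varied with the library number, at 70.3, 61.3 and 20.2 CPM with DMSO, 49.0, 49.3 and 27.2 CPM with FMK and 107, 129.7 and 46.4 CPM with OPH. Library 3 was lowest in each group, as it was for the adipocyte markers. Unblocked, no comparison passed for Mgst1: -0.27 (adjusted p = 0.818, 95% interval -1.70 to 1.17) with FMK, 0.90 (adjusted p = 0.378, 95% interval -0.49 to 2.29) with OPH and 1.17 (adjusted p = 0.307, 95% interval -0.24 to 2.58) for OPH against FMK. The FMK to DMSO ratios within numbers 1, 2 and 3 were 0.697, 0.804 and 1.35, and in libraries 1 and 2 alone the FMK change passed (adjusted p = 0.0295). The OPH to DMSO ratios within numbers 1, 2 and 3 were 1.52, 2.12 and 2.29, and the OPH to FMK ratios 2.18, 2.63 and 1.70. With the block, Mgst1 was higher with OPH than with DMSO (adjusted p = 1.23e-05) and than with FMK (adjusted p = 2.67e-06). Both differences also passed in libraries 1 and 2 alone (adjusted p = 0.000111 and 2.66e-06). The part of fat-like cells in these ratios was not tested.

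Nqo1, the quinone reductase gene often used as an NRF2 readout, was low, at 9.66 ± 0.868 CPM with DMSO, 13.5 ± 2.15 with FMK and 13.2 ± 1.59 with OPH. Its log2 fold changes were 0.48 (adjusted p = 0.132, 95% interval 0.029 to 0.94) with FMK and 0.45 (adjusted p = 0.175, 95% interval 0.00028 to 0.91) with OPH, neither passing. Gstm1, a cytosolic glutathione transferase gene, was at 41.0 ± 6.84 CPM with DMSO, 40.0 ± 3.17 with FMK and 54.5 ± 7.61 with OPH. Gstm1 gave 0.41 (adjusted p = 0.0556, 95% interval 0.11 to 0.71) with OPH and 0.45 (adjusted p = 0.0603, 95% interval 0.15 to 0.75) for OPH against FMK, which passed with the block (adjusted p = 0.0114 and 0.0104) and, for the first, without DMSO library 1, FMK library 3 or OPH library 3 (adjusted p = 0.0217 to 0.0480), for the second, without DMSO library 1 or 3 or OPH library 3 (adjusted p = 0.0329 to 0.0499). Gstp1, another transferase gene, was at 6.61 ± 2.23 CPM with DMSO, 4.29 ± 2.35 with FMK and 6.73 ± 0.0650 with OPH and did not pass (adjusted p = 0.320 with FMK and 0.983 with OPH). Both have near-identical relatives, so their counts are uncertain.

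Peroxidase genes split, Gpx3 and Cat falling with FMK and Gpx1 with OPH. Gpx3, the gene of the secreted glutathione peroxidase, was at 94.1, 70.5 and 69.0 CPM with DMSO, 42.5, 31.8 and 42.3 CPM with FMK and 71.6, 85.2 and 63.1 CPM with OPH. The FMK libraries lay below all others, and Gpx3 was 2.01-fold lower with FMK than with DMSO (log2 fold change -1.005 ± 0.15, adjusted p = 0.000202) and 1.89-fold higher with OPH than with FMK (log2 fold change 0.92 ± 0.15, adjusted p = 0.00177), while OPH against DMSO gave -0.086 (adjusted p = 0.776, 95% interval -0.40 to 0.23). Cat, the catalase gene, was at 105, 112 and 75.0 CPM with DMSO, 58.2, 60.5 and 63.5 CPM with FMK and 104, 102 and 71.8 CPM with OPH. It fell with FMK (1.60-fold lower, log2 fold change -0.68 ± 0.16, adjusted p = 0.00907) and was 1.53-fold higher with OPH than with FMK (log2 fold change 0.61 ± 0.16, adjusted p = 0.0317), against -0.067 (adjusted p = 0.844, 95% interval -0.41 to 0.27) for OPH and DMSO. The difference between inhibitors for Cat was missed without FMK library 1, 2 or 3 or OPH library 1 or 2 (adjusted p = 0.0774 to 0.127), and with limma-voom (adjusted p = 0.0520). Adipocyte markers moved alongside, at 216 to 302 CPM with FMK against 607 to 3313 with DMSO and 938 to 3878 with OPH, and their part in the Gpx3 and Cat levels was not tested. The FMK to DMSO ratios within numbers 1, 2 and 3 were 0.451, 0.451 and 0.613 for Gpx3 and 0.555, 0.541 and 0.846 for Cat. The labels do not say that these numbers pair the samples.

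Gpx1, the gene of the main cytosolic glutathione peroxidase, was at 358, 334 and 439.9 CPM with DMSO, 338, 377 and 383 CPM with FMK and 250.1, 262 and 271 CPM with OPH. All OPH libraries lay below all others. Gpx1 fell with OPH (1.45-fold lower, log2 fold change -0.53 ± 0.10, adjusted p = 0.000820) and was 1.40-fold lower with OPH than with FMK (log2 fold change -0.49 ± 0.10, adjusted p = 0.00396), with -0.045 (adjusted p = 0.804, 95% interval -0.25 to 0.16) for FMK against DMSO. Macrophage markers, given above for each group, were lower with both inhibitors than with DMSO, and their part in the Gpx1 levels was not tested. Gpx4, whose product reduces phospholipid hydroperoxides in membranes, was at 18.7 ± 1.87 CPM with DMSO, 21.8 ± 3.64 with FMK and 19.6 ± 2.23 with OPH and did not pass in any comparison (adjusted p = 0.434, 0.862 and 0.672).

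**Figure D3:**
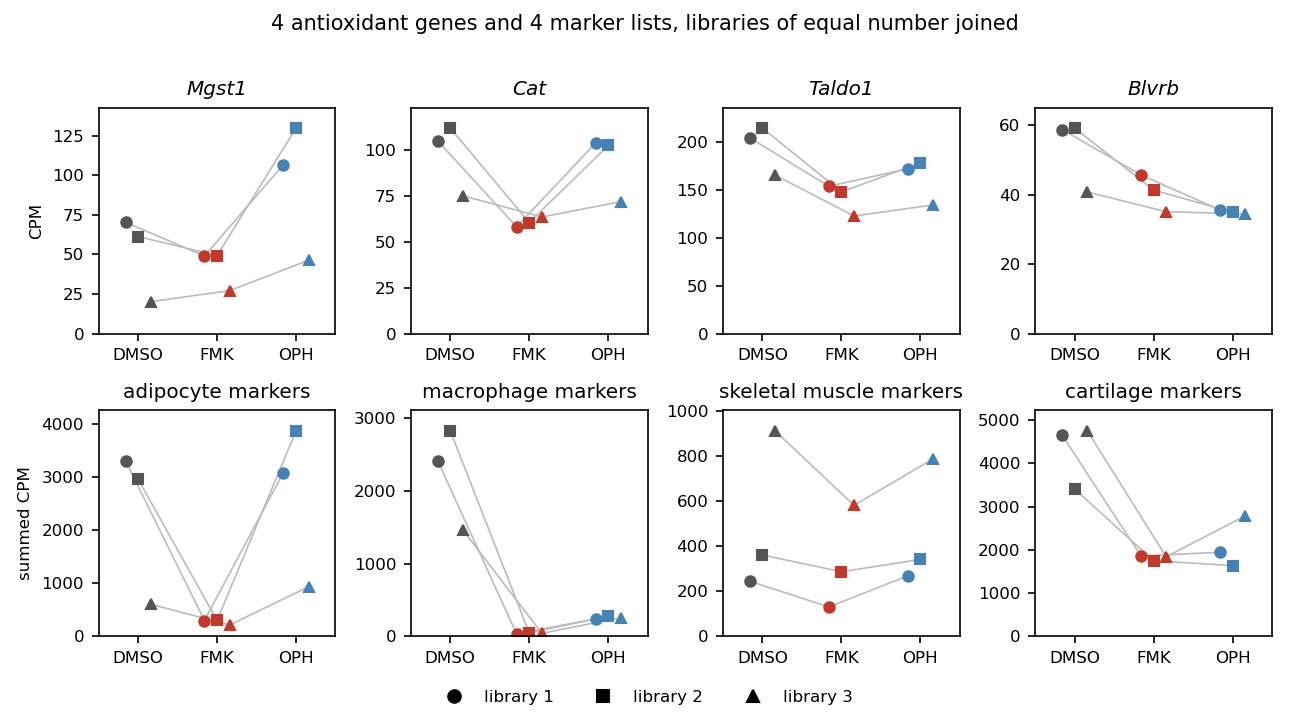
Levels of Mgst1, Cat, Taldo1 and Blvrb in CPM (top, y axis from 0) and summed CPM of the adipocyte, macrophage, skeletal muscle and cartilage marker lists (bottom) in the 3 groups. Symbols mark the library number and lines join libraries of equal number. Library 3 is lowest for Mgst1 and for the adipocyte markers in each group, and highest for the skeletal muscle markers.

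No superoxide dismutase gene passed in any comparison of the main fit. In the alternatives only Sod1 did, in OPH against FMK with scaling by library size alone (adjusted p = 0.0448). Sod1, the cytosolic copper and zinc enzyme gene, was at 734 ± 24.8 CPM with DMSO, 703 ± 54.7 with FMK and 779 ± 67.0 with OPH, with log2 fold changes of -0.063 (-0.23 to 0.11) and 0.086 (-0.082 to 0.25), intervals of 95% in parentheses. Sod2, the mitochondrial manganese enzyme gene, was at 97.7 ± 14.0 CPM with DMSO, 89.1 ± 12.9 with FMK and 109 ± 34.8 with OPH, with -0.13 (-0.65 to 0.39) and 0.16 (-0.36 to 0.67). Sod3, the extracellular enzyme gene, was at 13.4 ± 7.38 CPM with DMSO, 16.2 ± 6.05 with FMK and 11.1 ± 5.59 with OPH, and its intervals of 0.27 (-0.90 to 1.45) and -0.27 (-1.46 to 0.92) were wide. Osgin1, an oxidative stress-induced growth inhibitor gene, was low, at 1.67 ± 1.75 CPM with DMSO, 2.66 ± 0.275 with FMK and 4.45 ± 0.703 with OPH. Its OPH libraries were all above its DMSO libraries, but the change (log2 fold change 1.41 ± 0.62, adjusted p = 0.139) passed only with the block (adjusted p = 0.0470) and without DMSO library 1 (adjusted p = 0.0206). Its log2 fold change with OPH ran from 0.86 without DMSO library 3 to 2.63 without DMSO library 1, and with FMK from 0.13 to 1.90 over the libraries left out.

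Genes of the pentose phosphate pathway, which supplies NADPH, did not move together, and G6pdx and Pgd passed in no comparison of the main fit. Taldo1, the transaldolase gene, was at 204, 215 and 166 CPM with DMSO, 154, 148 and 123 CPM with FMK and 172, 178 and 134 CPM with OPH. All FMK libraries lay below all DMSO libraries, and Taldo1 fell with FMK (1.37-fold lower, log2 fold change -0.46 ± 0.13, adjusted p = 0.0169). That call was missed without DMSO library 1 or 2 or FMK library 3 (adjusted p = 0.0644 to 0.0785), and OPH against DMSO (log2 fold change -0.27 ± 0.12, adjusted p = 0.170) passed with the block (adjusted p = 0.0108). Tkt, the transketolase gene, was at 96.5, 90.3 and 69.5 CPM with DMSO, 90.0, 103 and 102 CPM with FMK and 103, 131 and 113 CPM with OPH. Its OPH libraries all exceeded the DMSO libraries, and it rose 1.35-fold (log2 fold change 0.44 ± 0.12, adjusted p = 0.0203), a call missed without DMSO library 3 or OPH library 2 (adjusted p = 0.0894 to 0.116), and in libraries 1 and 2 alone (adjusted p = 0.0845). G6pdx and Pgd encode the dehydrogenases that make NADPH directly. G6pdx was at 41.7 ± 5.61 CPM with DMSO, 32.1 ± 6.45 with FMK and 40.1 ± 6.45 with OPH. FMK against DMSO gave -0.37 (adjusted p = 0.130, 95% interval -0.72 to -0.024) for G6pdx. That change passed with scaling by library size alone (adjusted p = 0.0471). Pgd was at 111 ± 17.5 CPM with DMSO, 96.3 ± 10.1 with FMK and 119 ± 12.0 with OPH, with -0.20 (adjusted p = 0.270, 95% interval -0.46 to 0.051) for FMK, 0.10 (adjusted p = 0.664, 95% interval -0.16 to 0.35) for OPH and 0.30 (adjusted p = 0.137, 95% interval 0.047 to 0.55) for OPH against FMK, which passed with the block (adjusted p = 0.0192).

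The ARE core TGACNNNGC occurred on either strand within 250 bases before the start of 8 of the 29 matched members (27.6%) and 11.5% of all genes. With the G form added, the counts were 13 of 29 (44.8%) and 25.7%. A gene counted if any of its windows matched. By window, the core TGACNNNGC was in 8 of 39 member windows and 10.2% of all windows. Calls were found with and without a core. With FMK, 4 rose and 1 fell of 13 with a core, and 3 and 2 of 16 without. All genes gave 10.4% higher and 10.1% lower there. With OPH, 4 rose and 1 fell of 13, against 5 and 1 of 16, where 8.61% of all genes rose and 8.11% fell. Between inhibitors, 2 of 13 were higher with OPH and 0 lower, against 3 and 2 of 16 (all genes 4.20% and 4.66%). Blvrb and Taldo1, which fell with an inhibitor, hold a core of the G form, as do Srxn1, Gstp1 and Osgin1. In Gclm the ARE and a metal response core overlap. The G form was added after the Srxn1 promoter had been read, and a match is a string of letters, not a measured binding site. Hmox1, Gclc, Gsr, Prdx6, Gsta4, Abcc1 and Sod3 had no entry in the table.

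Around these genes, 100 other tested genes of the pathway, taken from 9 lists, moved in both directions. With FMK 11 rose and 17 fell, with OPH 14 rose and 20 fell, and between inhibitors 13 were higher and 9 lower with OPH. All genes were called at 20.6%, 16.7% and 8.86% in these comparisons. With OPH the counts were 9 higher and 12 lower without DMSO library 1, 10 higher and 12 lower without OPH library 1 and 9 higher and 12 lower without OPH library 2, and between inhibitors 8 higher and 5 lower without FMK library 1 and 8 higher and 5 lower without OPH library 2. Scaling by library size alone gave 9 higher and 26 lower with FMK and 17 higher and 6 lower between inhibitors. The median log2 fold changes of the 100 genes were -0.045, -0.02 and 0.067. Of 13 partners, repressors and adaptors of NRF2, 3 rose with FMK and 7 with OPH, and none fell, where 10.4% and 8.61% of all genes rose (median 0.21 and 0.52). Among them Sqstm1, the gene of p62, an adaptor that draws KEAP1 into autophagy, was at 284, 284 and 304 CPM with DMSO, 468, 561 and 549 CPM with FMK and 614, 678 and 619 CPM with OPH. Sqstm1 rose 1.81-fold with FMK (log2 fold change 0.86 ± 0.083, adjusted p = 6.04e-07) and 2.19-fold with OPH (log2 fold change 1.13 ± 0.083, adjusted p = 2.84e-08), with no overlap between any pair of groups.

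Of 22 other peroxidases, peroxiredoxins and redoxins, 2 rose and 3 fell with FMK, where 10.4% of all genes rose and 10.1% fell. With OPH 2 of them rose and 8 fell, where 8.61% of all genes rose and 8.11% fell. Sesn2, which encodes sestrin 2, a stress-induced protein, was at 39.7, 46.3 and 45.5 CPM with DMSO, 47.0, 39.1 and 48.4 CPM with FMK and 74.3, 71.1 and 74.2 CPM with OPH and was 1.63-fold higher with OPH than with FMK (log2 fold change 0.71 ± 0.12, adjusted p = 0.00102). Of 9 other heme, iron and metal genes, 2 were higher with OPH than with FMK and 0 lower. Of all genes, 4.20% were higher and 4.66% lower. Tfrc, the transferrin receptor gene, was at 43.9 ± 6.76 CPM with DMSO, 24.4 ± 5.28 with FMK and 50.6 ± 7.73 with OPH (log2 fold change 1.06 ± 0.17, adjusted p = 0.000844). Slc30a1, the gene of the zinc exporter of the cell membrane, was at 26.3 ± 4.27 CPM with DMSO, 16.9 ± 1.07 with FMK and 32.7 ± 5.17 with OPH (log2 fold change 0.95 ± 0.17, adjusted p = 0.00184), and unlike the metallothionein genes its FMK libraries were the lowest.

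The list of superoxide-producing genes, NADPH oxidase subunits of phagocytes and the xanthine dehydrogenase gene Xdh among them, had the lowest medians of the 9 pathway lists against DMSO, -4.07 with FMK and -1.01 with OPH on the log2 scale. Of 7 tested genes of superoxide production, 4 fell and 1 rose with FMK, and 5 fell and 1 rose with OPH. Of all genes, 10.1% fell and 10.4% rose with FMK, and 8.11% fell and 8.61% rose with OPH. Cybb, the gene of the catalytic subunit, was at 29.1, 44.4 and 15.1 CPM with DMSO, 1.14, 1.40 and 1.66 CPM with FMK and 13.5, 13.9 and 16.5 CPM with OPH. It was 20.9-fold lower with FMK than with DMSO (log2 fold change -4.39 ± 0.40, adjusted p = 2.86e-06) and 10.4-fold higher with OPH than with FMK (log2 fold change 3.38 ± 0.41, adjusted p = 0.000255). Ncf1 and Ncf4 encode cytosolic subunits. Ncf1 was at 17.0 ± 2.43 CPM with DMSO, 0.978 ± 0.373 with FMK and 3.90 ± 0.610 with OPH (log2 fold change -4.07 ± 0.35, adjusted p = 1.48e-07 with FMK, log2 fold change -2.12 ± 0.29, adjusted p = 6.16e-05 with OPH). Ncf4 was at 11.4 ± 2.31 CPM with DMSO, 0.393 ± 0.204 with FMK and 2.12 ± 0.233 with OPH (log2 fold change -4.80 ± 0.48, adjusted p = 7.79e-07 with FMK, log2 fold change -2.42 ± 0.37, adjusted p = 0.000181 with OPH). Cyba, the partner subunit that other cells also make, was at 81.0 ± 2.99 CPM with DMSO, 67.9 ± 3.31 with FMK and 46.3 ± 3.99 with OPH and fell with OPH (log2 fold change -0.81 ± 0.10, adjusted p = 3.36e-05). All 16 macrophage markers fell with both inhibitors as well, and the part of macrophage number in the oxidase levels was not tested.

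**Figure D4:**
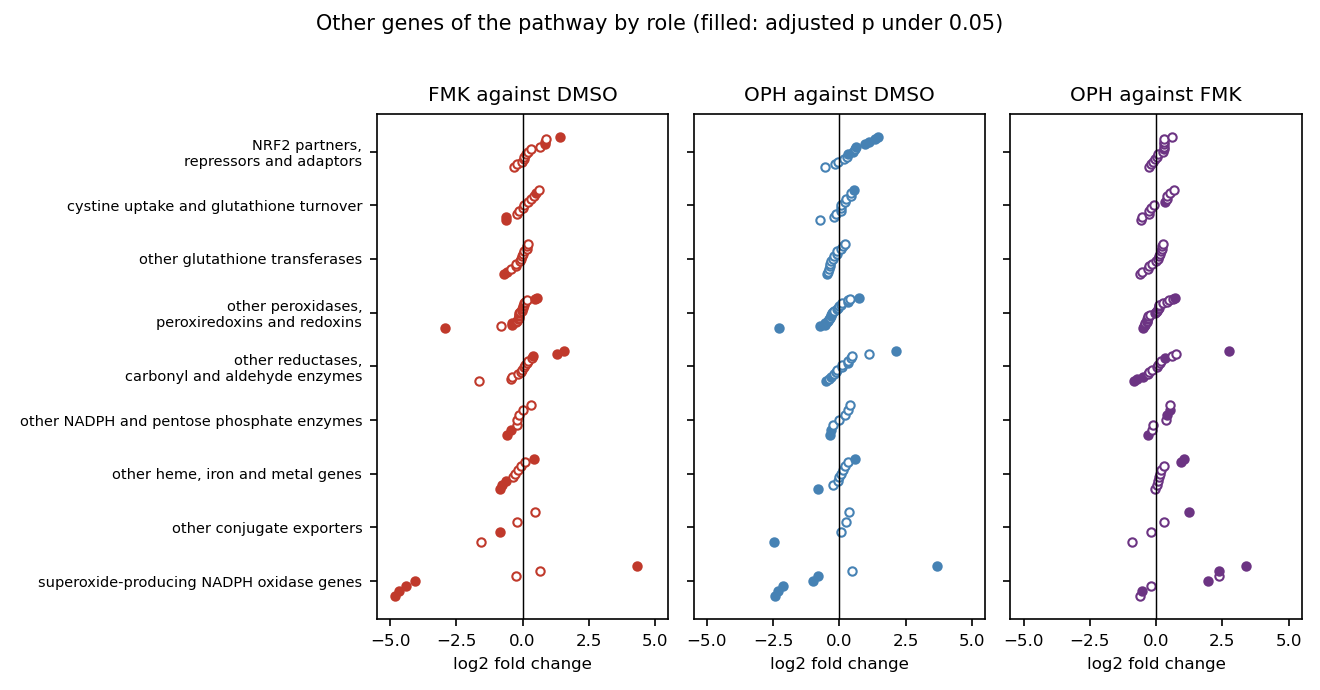
Log2 fold changes (x axis) of 100 other pathway genes by list (y axis) in the 3 comparisons; each point is a gene, filled where its adjusted p was under 0.05. Genes of the superoxide production list reach log2 fold changes below -4 with FMK, and no called gene of the NRF2 partner list lies to the left of 0.

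Set side by side at the equal dose, the compounds differed in 10 of the 36 members by the direct test. Only 1 pair of compounds was compared, and 8.86% of all genes passed. The calls of Srxn1, Cat and Abcc1 were missed in some alternative fits, and the other 7 held in all 18. Higher with OPH were Hmox1, Ftl1, Gclc, Gclm, Srxn1, Gpx3 and Cat, and lower were Txn1, Abcc1 and Gpx1. The direction against DMSO was not the same for these: Hmox1 and Srxn1 rose with both, Gclc and Gclm with OPH, and Gpx3 and Cat fell with FMK. Keap1, Txnrd1, Mt1 and Mt2 rose with both and did not pass between the compounds. Their differences had 95% intervals of -0.20 to 0.18, -0.32 to 0.14, 0.034 to 0.55 and -0.94 to 0.28 on the log2 scale, which do not show that the compounds act alike on them.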

How the data were processed

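The authors deposited a table of raw counts per gene for 9 libraries, which are whole numbers. Per the labels' protocols, libraries came from a QuantSeq kit, which sequences transcript ends next to the poly(A) tail. The submitters' processing notes name STAR, cutadapt, DESeq2, FastQC, MultiQC and the genome mm10 without versions. The counting program, its strand setting and its annotation are not given in the sources used. A count is a transcript end, so no length scaling was applied.

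The 99 spike-in rows (1 count in all) were left out. Library columns were matched to samples by name: 2 names equalled the sample title and 7 added a letter. Counts were scaled by TMM (factors 1.02 to 1.03 in DMSO, 0.945 to 0.962 in FMK and 1.02 to 1.03 in OPH libraries), filtered with filterByExpr and fitted with edgeR 4.0.16 (R 4.3.3), a robust quasi-likelihood fit over all 9 libraries with 1 coefficient per group, two-sided, adjusted over 13255 genes. Alternatives used limma 3.58.1 and DESeq2 1.42.0, other scalings and filters, and fewer libraries. The fit was tested on simulated data. The biological coefficient of variation was 0.156.

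Deviations of libraries with equal numbers correlated at r = 0.102 to 0.344 in 9 of 9 pairs across groups. Libraries of equal number thus resembled each other, but the labels do not say that the numbers pair the samples. The main fit therefore leaves the number out, and the fit with it as a block is given as an alternative. Members, lists and tests were chosen with earlier results of these data known. All members are named; a member called in any comparison has its value given in every library, and of other pathway genes the 4 with the smallest p in each comparison are named. Gene positions are from GENCODE M21.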

Additional observations from a re-analysis of the deposited data

How the results depend on the processing

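No call of a member changed direction in any of the 18 alternatives. Over members and alternatives, calls were lost 83 times and gained 60 times. Calls that held in all 18 numbered 8 of 13 with FMK (Txnrd1, Txn1, Srxn1, Prdx6, Gpx3, Cat, Mt1, Mt2), 8 of 14 with OPH (Hmox1, Gclc, Txnrd1, Srxn1, Gsta4, Gpx1, Mt1, Mt2) and 7 of 10 between inhibitors (Hmox1, Ftl1, Gclc, Gclm, Txn1, Gpx1, Gpx3). Leaving out each library in turn gave 9 to 13 members called with FMK, 9 to 17 with OPH and 7 to 13 between inhibitors. With OPH, 14 were called with all libraries, and the lowest count was without OPH library 2. Over all genes it gave 1979 to 2668 with FMK, against 2724 with all libraries. With OPH it gave 1487 to 2416, against 2216, and between inhibitors 571 to 1386, against 1175. With the replicate block as pairing, 16 members and 2139 genes were called between inhibitors. The block lost no call of a member, and beyond the gains given in the report it changed no other call of one. Without a library fewer samples enter, and the block takes out the spread between numbers; beyond that the cause was not tested. Among members Osgin1 and Gstp1 had the fewest counts, 170 and 346 over all 9 libraries; the part of depth in their missing calls was not tested.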

Other observations

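Several pathway genes outside the 36, chosen here after their values were seen, moved with an inhibitor. Maff, the gene of a small MAF partner of NRF2, was at 6.90 ± 1.28 CPM with DMSO, 18.5 ± 2.81 with FMK and 17.7 ± 1.13 with OPH (SD, n = 3) and rose 2.68-fold with FMK (log2 fold change 1.42 ± 0.21, adjusted p = 9.33e-05) and 2.56-fold with OPH (log2 fold change 1.36 ± 0.21, adjusted p = 0.000220). Akr1c14, an aldo-keto reductase gene, was at 2.52 ± 1.24 CPM with DMSO, 7.46 ± 2.64 with FMK and 11.3 ± 2.05 with OPH and rose with both (log2 fold change 1.55 ± 0.39, adjusted p = 0.00747 and log2 fold change 2.15 ± 0.38, adjusted p = 0.000650). Akr1b8, another, was at 7.98 ± 1.13 CPM with DMSO, 19.5 ± 1.96 with FMK and 10.7 ± 2.08 with OPH, rose with FMK (log2 fold change 1.28 ± 0.22, adjusted p = 0.000358) and gave 0.43 (adjusted p = 0.225, 95% interval -0.043 to 0.90) with OPH. Slc3a2, the heavy chain gene of the cystine transporter and other amino acid transporters, was at 266 ± 7.53 CPM with DMSO, 309 ± 36.0 with FMK and 389 ± 27.2 with OPH and rose with OPH (log2 fold change 0.55 ± 0.089, adjusted p = 0.000299); with FMK its change passed with the block (adjusted p = 0.0372). Xdh, the xanthine dehydrogenase gene, was at 0.752 ± 0.525 CPM with DMSO, 15.4 ± 5.97 with FMK and 9.96 ± 3.98 with OPH and rose with both (log2 fold change 4.30 ± 0.53, adjusted p = 4.14e-05 and log2 fold change 3.67 ± 0.54, adjusted p = 0.000298), the only gene of the 7 for superoxide production that rose.

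In the opposite direction, Prdx4 and Gpx8, whose products handle peroxide in the endoplasmic reticulum, fell with OPH and not by the test with FMK. Prdx4 was at 123 ± 8.34 CPM with DMSO, 132 ± 5.87 with FMK and 92.5 ± 8.92 with OPH (log2 fold change -0.41 ± 0.10, adjusted p = 0.00647), a call missed in libraries 1 and 2 alone (adjusted p = 0.0677), and Gpx8 at 181 ± 16.1 CPM with DMSO, 167 ± 3.10 with FMK and 124 ± 12.3 with OPH (log2 fold change -0.54 ± 0.095, adjusted p = 0.000590). OPH against FMK passed for both, at log2 fold change -0.51 ± 0.10, adjusted p = 0.00264 for Prdx4 and log2 fold change -0.42 ± 0.095, adjusted p = 0.00951 for Gpx8, the latter missed without OPH library 2 (adjusted p = 0.0709). Selenop, the gene of a secreted selenium carrier, was at 304 ± 159.9 CPM with DMSO, 39.8 ± 12.1 with FMK and 62.2 ± 16.1 with OPH and fell with FMK (log2 fold change -2.93 ± 0.54, adjusted p = 0.0112) and OPH (log2 fold change -2.29 ± 0.51, adjusted p = 0.0292), the OPH call being missed without DMSO library 1 or 2, FMK library 1 or OPH library 1, 2 or 3 (adjusted p = 0.0528 to 0.0988), and with only the pair of groups in the fit (adjusted p = 0.0732).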
